A study of Homo sapiens with 12 samples.

Results

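The 48 genes described here act in the G2 phase of the cell cycle and in mitosis. They were found by matching the Ensembl identifiers of the deposited table to a list of symbols through the GENCODE 29 annotation. All 48 were present among the 59191 features of the table, and all 48 were among the 15352 genes expressed highly enough to be tested. RNA sequencing had been done on Huh7, a long-established line of human liver cancer cells, with 12 libraries in 4 groups of 3. The groups were cells given disulfiram and thalidomide together (the combination), disulfiram alone, thalidomide alone, and a control named for the solvent DMSO. Disulfiram inhibits aldehyde dehydrogenases, and thalidomide binds cereblon, a substrate receptor of a ubiquitin ligase. Every group shares the one cell line, and neither the units of the doses nor the time of treatment are given in the sources used here.

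Entry into mitosis is driven by cyclin B bound to the kinase CDK1, which CDC25 phosphatases switch on. The spindle checkpoint then delays the separation of sister chromatids until every kinetochore is attached, by restraining CDC20, the activator of the anaphase-promoting complex (APC/C). This ubiquitin ligase, working with the conjugating enzyme UBE2C, marks cyclin B and securin for destruction and so ends mitosis. Many of these genes are transcribed mainly in G2, under complexes that recognise a CHR element (the cell cycle genes homology region) and CCAAT boxes near their start sites. In liver cancer, high levels of such genes are a known sign of proliferation.

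Against control, the APC/C activator CDC20 and its partner enzyme UBE2C fell both in combination-treated and in disulfiram-treated cells. Cyclin B1 (CCNB1) fell in both as well. The kinase PLK1 and survivin (BIRC5) fell with the combination, cyclin B2 (CCNB2) fell with disulfiram, and the checkpoint kinases BUB1 and BUB1B rose with the combination. The phosphatase CDC25B, the most GC-rich member, rose with disulfiram and only just passed the threshold. The shares of all tested genes called were 6.70% lower and 18.4% higher with the combination, and 4.52% lower and 8.73% higher with disulfiram. Thalidomide alone moved none of the 48 past the threshold, and 0% of all tested genes. The combination differences of the 48 members fell as the GC content of their transcripts rose, a slope that all tested genes had. Members with AT-rich transcripts were mostly higher in combination than in control libraries, and those with GC-rich transcripts mostly lower. CDC20, UBE2C, PLK1 and BIRC5 are among the GC-rich ones. The calls of BUB1 and BUB1B were lost after median-of-ratios scaling, and that of BUB1B also after correction for GC content. Among members that fell with the combination, the calls of CCNB1, BIRC5 and PLK1 held in 8, 13 and 15 of 21 alternative fits. Those of CDC20 and UBE2C held in all 21. For disulfiram, the calls of CCNB2 and CDC20 held in 9 and 15, and that of CCNB1 in 20. With no filter on low values, 2 of the 7 combination calls remained, those of CDC20 and UBE2C.

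Values are TPM, a share of all transcripts scaled for transcript length, which is meant to let levels be compared between genes. Differences are log2 fold changes of TPM plus a pseudocount of 1, given ± standard error (SE), and "past the threshold" means a Benjamini-Hochberg adjusted p below 0.05 over all 15352 genes in limma's moderated test. TPM keeps no read counts, so the depth of the libraries is unknown. The labels' extraction text describes dissociated patient tissue and droplet single-cell chemistry, which goes against the cell-line samples, so how these libraries were prepared is not known. Comparisons of level between genes are uncertain to that extent. No label says that replicates were separate cultures, so the p-values rest only on how far these libraries differ, which may be technical. In such bulk samples, fewer cells in mitosis and less of a transcript in each cell cannot be told apart. A TPM of 1 or more was reached by 13693 to 15038 genes in a library. All 12 hepatocyte and Huh7 markers had a mean TPM of at least 1, and their TPM summed to 9564 to 9989 in combination, 9964 to 11120 in disulfiram, 11700 to 13810 in thalidomide and 12280 to 13740 in control libraries. Of the 6 leukocyte markers 2 reached a mean TPM of 1 (CD14 and LYZ, with PTPRC at most 0.16), and their sums were 87.7 to 96.2 in combination, 64.6 to 130.5 in disulfiram, 117.7 to 169.3 in thalidomide and 104.5 to 174.1 in control libraries. Among endothelial markers 1 of 4 did so (PECAM1, with KDR at most 0.01), with sums of 3.83 to 5.43 in combination, 3.52 to 7.42 in disulfiram, 1.66 to 2.51 in thalidomide and 0.79 to 1.55 in control libraries. Among fibroblast and stellate markers it was 4 of 6, with sums of 60.5 to 85.9 in combination, 56.4 to 71.3 in disulfiram, 55.2 to 84.4 in thalidomide and 71.1 to 83.7 in control libraries. The part of these marker levels in the results below was not tested.

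Of the 48 members, 40 had a promoter in the RefSeq table (GRCh38.p14), which allowed a search for both elements in the 250 bases before the start of transcription. The CHR element was searched as TTTGAA and its complement TTCAAA, and the CCAAT box as CCAAT and its complement ATTGG. The CHR letters were found in 20 of the 40 members (50%), against 13.6% of the 27305 promoters in the table. CCAAT was found in 30 (75%), against 33% of all promoters, and more than 1 copy in 18 (45%), against 10% of all. The table has no entry for UBE2C or BIRC5. The sequences below belong to the 6 members with the smallest adjusted p against control among the 40, and are shown because their calls are described below. They are written 5′ to 3′ on the strand of the gene, with CHR and CCAAT letters in capitals. They lie at chr1:43358731-43358980 (plus strand), chr5:69166900-69167149 (plus strand), chr15:59104896-59105145 (plus strand), chr16:23678639-23678888 (plus strand), chr2:110678064-110678313 (minus strand) and chr15:40160819-40161068 (plus strand).
CDC20: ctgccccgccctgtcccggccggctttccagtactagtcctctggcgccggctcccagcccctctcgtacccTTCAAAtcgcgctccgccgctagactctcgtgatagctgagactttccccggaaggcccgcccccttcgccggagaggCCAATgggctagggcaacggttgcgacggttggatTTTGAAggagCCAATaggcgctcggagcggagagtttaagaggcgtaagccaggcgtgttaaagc
CCNB1: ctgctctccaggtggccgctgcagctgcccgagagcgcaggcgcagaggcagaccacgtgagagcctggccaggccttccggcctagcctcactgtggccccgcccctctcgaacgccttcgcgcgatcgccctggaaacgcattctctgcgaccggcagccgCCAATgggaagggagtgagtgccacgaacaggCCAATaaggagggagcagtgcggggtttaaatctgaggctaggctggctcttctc
CCNB2: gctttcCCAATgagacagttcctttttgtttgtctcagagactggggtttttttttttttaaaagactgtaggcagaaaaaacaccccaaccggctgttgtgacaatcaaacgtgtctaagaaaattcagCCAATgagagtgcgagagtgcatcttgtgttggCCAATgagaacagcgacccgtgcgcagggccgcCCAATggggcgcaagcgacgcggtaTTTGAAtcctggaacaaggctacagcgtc
PLK1: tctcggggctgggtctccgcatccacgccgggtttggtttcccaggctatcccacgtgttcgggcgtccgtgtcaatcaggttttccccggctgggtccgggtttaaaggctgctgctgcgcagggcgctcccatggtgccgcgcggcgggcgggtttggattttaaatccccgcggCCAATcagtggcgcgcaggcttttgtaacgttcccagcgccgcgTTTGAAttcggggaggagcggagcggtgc
BUB1: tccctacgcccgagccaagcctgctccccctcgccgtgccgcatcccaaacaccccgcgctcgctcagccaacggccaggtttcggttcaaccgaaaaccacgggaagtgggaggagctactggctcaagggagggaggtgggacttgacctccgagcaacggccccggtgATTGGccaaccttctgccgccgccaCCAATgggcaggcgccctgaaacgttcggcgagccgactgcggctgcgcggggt
BUB1B: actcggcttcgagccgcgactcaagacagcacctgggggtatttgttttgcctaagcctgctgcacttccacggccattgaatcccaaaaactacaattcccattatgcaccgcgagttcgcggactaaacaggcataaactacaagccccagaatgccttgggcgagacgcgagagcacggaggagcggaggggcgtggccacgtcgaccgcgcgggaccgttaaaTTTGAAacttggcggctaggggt
CDC20 carries 2 CHR matches, which begin 178 and 65 bases before the start, and 2 CCAAT boxes at 100 and 55 bases. CCNB1 has CCAAT boxes at 87 and 55 bases and no CHR letters in this window. CCNB2 has 4 CCAAT boxes, at 244, 120, 87 and 54 bases, and a CHR match at 29 bases. PLK1 has a CCAAT box at 73 bases and a CHR match at 29 bases. BUB1 has CCAAT boxes at 79 and 54 bases, the first on the opposite strand, and BUB1B has a CHR match at 23 bases and no CCAAT. The CHR letters were present in 50% of members with promoters in each of the 3 bands of transcript GC content used below (9 of 18, 7 of 14 and 4 of 8). A match is a description of the letters and not evidence of binding.

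In combination libraries, 5 of the 48 members were past the threshold as lower than control and 2 as higher. Of all tested genes, 6.70% were called lower and 18.4% higher. The 5 of 48 members called lower stood near that background share, and the 2 of 48 called higher below it. The median log2 fold change of the members was 0.27, beside 0.20 for all tested genes. Median-of-ratios scaling levels the libraries at their median gene, so it brought that shift of the median of all genes to 0.00. The median of the members under this scaling was 0.06. The same scaling turned 2823 genes called higher and 1029 lower into 1213 higher and 2139 lower, which is 7.90% and 13.9% of those tested, and left 0 members higher and 12 lower. With disulfiram alone, 4 members were called lower and 1 higher, where 4.52% of all genes were called lower and 8.73% higher. Their median was -0.09, beside 0.09 for all genes. Over all genes, 1340 higher and 694 lower became 704 higher and 1050 lower after scaling. Both comparisons use the same 3 control libraries.

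The only calls against control that held in all 21 alternative fits were those of a pair of anaphase genes. They were CDC20 with the combination, and UBE2C both with the combination and with disulfiram. Each call was refitted under 21 alternatives: another pseudocount, filter, scaling, GC correction or replicate term, fewer groups, or libraries left out. CDC20 (ENSG00000117399, hg38, chromosome 1, 43358955 to 43363203) had TPM of 199, 224 and 205 in combination libraries, 236, 254 and 220 in disulfiram libraries, 355, 244 and 305 in thalidomide libraries, and 310, 317 and 342 in control libraries. The 6 libraries with disulfiram all lay below the 3 controls, and the thalidomide libraries spread across them. The log2 fold change was -0.62 ± 0.12 with the combination (adjusted p = 0.00474) and -0.45 ± 0.12 with disulfiram (adjusted p = 0.0256). The first of these calls held in all 21 alternative fits, and the second in 15 of 21 (adjusted p 0.00651 to 0.0976). It was lost without the first or the third disulfiram library (adjusted p = 0.0673 and 0.0976) and without any 1 control library. Apart from the single-library removals, 8 of 9 alternatives kept the disulfiram call.

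UBE2C (ENSG00000175063, chromosome 20, 45812576 to 45816957), the enzyme that starts ubiquitin chains on APC/C substrates, had TPM of 246, 261 and 249 with the combination, 269, 263 and 248 with disulfiram, 359, 286 and 335 with thalidomide, and 322, 354 and 358 in control libraries. Again the 6 disulfiram-containing libraries lay below every control. Its log2 fold change was -0.45 ± 0.08 (adjusted p = 0.00487) with the combination and -0.40 ± 0.08 (adjusted p = 0.00934) with disulfiram, and both calls held in all 21 alternatives. Securin (PTTG1), the separase inhibitor that the APC/C destroys, was the most abundant member, at 688 ± 35.5 TPM with the combination, 660 ± 9.89 with disulfiram, 791 ± 80.0 with thalidomide and 770 ± 43.7 in control libraries (SD, n = 3 each). Its libraries did not overlap those of control in either comparison, but its log2 differences of -0.16 ± 0.08 with the combination (adjusted p = 0.139) and -0.22 ± 0.08 with disulfiram (adjusted p = 0.0862) did not pass. Separase (ESPL1), the protease that securin inhibits, averaged 20.4 ± 3.78 TPM with the combination, 24.1 ± 2.13 with disulfiram, 19.0 ± 1.78 with thalidomide and 18.7 ± 2.22 in control libraries, and did not pass. GENCODE 29 lists copies named for 12 of the 48 members, among them CDC20, UBE2C, PTTG1, CCNB2, NEK2 and BUB1, so reads could have been divided between copies and these levels are uncertain to that extent.

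**Figure D1:**
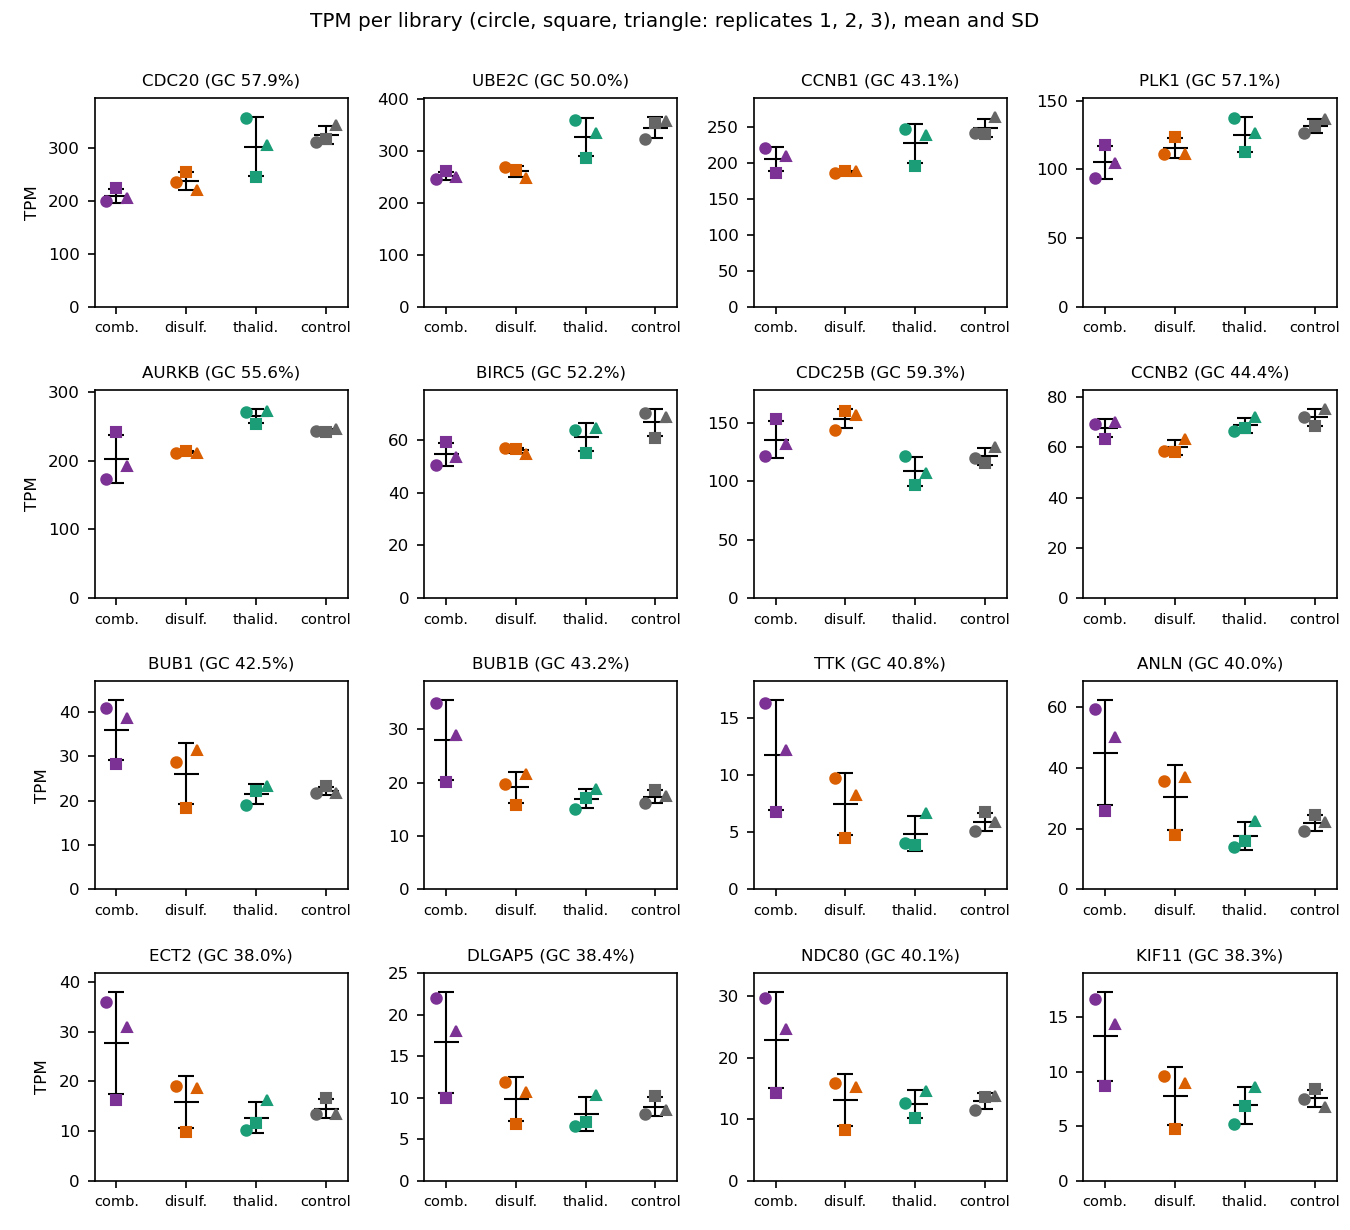
TPM of 16 members in each library, with combination, disulfiram, thalidomide and control groups from left to right; circles, squares and triangles are replicates 1, 2 and 3, and the bars are the mean and SD of 3 libraries. The upper panels hold GC-rich members and cyclins, with CDC20 and UBE2C below every control in all 6 disulfiram-containing libraries, and the lower panels hold AT-rich members, where the second combination and second disulfiram libraries (squares) lie below the others of their group.

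Among the 10 genes of mitotic entry, 2 fell with the combination and 2 fell and 1 rose with disulfiram. Of all tested genes, 6.70% fell with the combination, and 4.52% fell and 8.73% rose with disulfiram. Counts this small are not read as a result about the role. Cyclin B1, the partner of CDK1, had TPM of 220, 186 and 209 in combination libraries, 186, 188 and 189 in disulfiram libraries, 247, 196 and 239 in thalidomide libraries, and 242, 240 and 263 in control libraries. The 3 disulfiram libraries lay close together, and all 6 libraries that had been given disulfiram lay below control. The log2 fold change was -0.40 ± 0.09 with disulfiram (adjusted p = 0.0153, lost only without the third control library, 0.0606) and -0.28 ± 0.09 with the combination (adjusted p = 0.0472). The combination call held in 8 of 21 alternatives (adjusted p 0.00633 to 0.143), and was lost on leaving out any library other than the first or second thalidomide library. CCNB2, another B-type cyclin, had TPM of 69.3, 63.5 and 70.0 with the combination, 58.7, 58.1 and 63.5 with disulfiram, 66.5, 67.8 and 72.1 with thalidomide and 72.3, 68.4 and 75.2 in control libraries. It fell with disulfiram (-0.26 ± 0.08, adjusted p = 0.0440, 9 of 21 alternatives, 0.0132 to 0.144), and leaving out any library other than the second combination or the third thalidomide library ended the call. With the combination its difference was -0.09 ± 0.08 (adjusted p = 0.376).

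PLK1, the kinase that promotes mitotic entry, centrosome maturation and cytokinesis, had TPM of 93.6, 117 and 105 with the combination, 111, 124 and 111 with disulfiram, 137, 112 and 126 with thalidomide, and 127, 132 and 136 in control libraries. The combination and disulfiram libraries lay below all controls. It fell with the combination (-0.33 ± 0.10, adjusted p = 0.0324), and the difference with disulfiram was -0.19 ± 0.10 (adjusted p = 0.232). The call held in 15 of 21 alternatives (0.00295 to 0.130) and was lost without the first or the third combination library or any 1 control library. It was also lost with no filter on low values. CDC25B, the phosphatase that starts CDK1 activation, went the other way with disulfiram, at 144, 160 and 156 TPM against 120, 115 and 129 in control libraries. Its log2 fold change of 0.34 ± 0.10 only just passed (adjusted p = 0.0496) and held in 5 of 21 alternatives (0.0310 to 0.546). Leaving out a library kept the call only for the first or second combination and the first or second thalidomide library. With the combination it had 122, 153 and 132 TPM and a difference of 0.15 ± 0.10 (adjusted p = 0.270), which turned negative after median-of-ratios scaling (-0.08). The kinase NEK2, which separates centrosomes, had 55.1, 39.6 and 53.2 TPM with the combination, 49.3, 26.1 and 47.5 with disulfiram, 28.2, 30.6 and 32.0 with thalidomide, and 32.9, 38.8 and 33.4 in control libraries. Every combination library was above every control, yet the difference of 0.47 ± 0.21 did not pass (adjusted p = 0.107). The other 5 of this role (CDK1, CCNA2, CDC25C, PBK and MELK) did not pass in either comparison.

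In the Aurora kinase and chromosomal passenger group, the complex that corrects faulty kinetochore attachments, 1 of 5 members passed with the combination and 0 of 5 with disulfiram. Of all tested genes, 6.70% were called lower and 18.4% higher with the combination, and 4.52% lower and 8.73% higher with disulfiram. Survivin (BIRC5), which anchors the complex at centromeres, had TPM of 50.9, 59.4 and 53.8 in combination libraries, 57.0, 56.7 and 55.0 in disulfiram libraries, 64.0, 55.1 and 64.8 in thalidomide libraries and 70.7, 61.0 and 69.1 in control libraries. All disulfiram-containing libraries were below the lowest control. Its log2 fold change with the combination was -0.29 ± 0.09 (adjusted p = 0.0407), which held in 13 of 21 alternatives (0.00426 to 0.144). The call was lost without the first or the third combination library, the third disulfiram library, or the first or the third control library. Apart from the single-library removals, 6 of 9 alternatives kept it, and no filter on low values was among those that ended it. Its difference with disulfiram was -0.25 ± 0.09 (adjusted p = 0.103). AURKB, the catalytic kinase of the complex, had TPM of 173, 241 and 193 with the combination, 212, 215 and 211 with disulfiram, 271, 253 and 272 with thalidomide and 243, 241 and 246 in control libraries. The second combination library lay within the control range and the other 2 were far below it. Its difference from control was -0.28 ± 0.10 with the combination (adjusted p = 0.0566) and -0.20 ± 0.10 with disulfiram (adjusted p = 0.224). AURKA, TPX2 and CDCA8 did not pass, with combination differences of -0.04, 0.02 and -0.11.

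A pair of spindle checkpoint kinases rose with the combination, where 18.4% of all tested genes did. BUB1 (ENSG00000169679, chromosome 2, 110637698 to 110678114), which recruits checkpoint proteins to kinetochores, had TPM of 40.9, 28.2 and 38.6 in combination libraries, 28.6, 18.4 and 31.3 in disulfiram libraries, 19.1, 22.1 and 23.3 in thalidomide libraries, and 21.6, 23.3 and 21.8 in control libraries. The combination libraries were all above the controls, and the second disulfiram library was below them while the other 2 were above. BUB1B, whose product BUBR1 binds and restrains CDC20, had TPM of 34.9, 20.1 and 28.98 with the combination, 19.8, 15.9 and 21.6 with disulfiram, 15.1, 17.1 and 18.8 with thalidomide and 16.1, 18.6 and 17.4 in control libraries. The log2 fold changes with the combination were 0.65 ± 0.18 (adjusted p = 0.0256) for BUB1 and 0.63 ± 0.18 (adjusted p = 0.0260) for BUB1B. Both were positive in all 21 alternatives, but smaller once GC content was corrected, at 0.30 ± 0.09 for BUB1 (adjusted p = 0.0426) and 0.30 ± 0.10 for BUB1B (adjusted p = 0.0608). Over the alternatives the adjusted p ran from 0.000951 to 0.102 for BUB1 and from 0.00148 to 0.109 for BUB1B. Both calls were lost without the first or the third combination library or the first or the third control library, and after median-of-ratios scaling (0.42, adjusted p = 0.0599, and 0.40, adjusted p = 0.0685). Neither call held with no filter on low values. With disulfiram the differences were 0.19 ± 0.18 for BUB1 (adjusted p = 0.551) and 0.12 ± 0.18 for BUB1B (adjusted p = 0.717).

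The remaining 4 checkpoint members did not pass against control. The kinase TTK (MPS1), which starts checkpoint signalling, had 16.3, 6.76 and 12.2 TPM with the combination, 9.73, 4.45 and 8.23 with disulfiram, 4.07, 3.91 and 6.66 with thalidomide and 5.11, 6.73 and 5.86 in control libraries. The second combination library stood only just above the highest control, and the difference was 0.82 ± 0.31 (adjusted p = 0.0692). BUB3, the most abundant of the group and the adaptor that binds BUB1 and BUB1B, averaged 132 ± 14.3 TPM with the combination, 111 ± 15.8 with disulfiram, 109 ± 6.34 with thalidomide and 117 ± 13.3 in control libraries (SD, n = 3 each). Its difference of 0.18 ± 0.12 with the combination (adjusted p = 0.279) changed sign under GC correction (-0.22) and median-of-ratios scaling (-0.06). MAD2L1 and SGO1 had combination differences of 0.59 and 0.43.

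None of the 19 members of the kinetochore, kinesin, spindle-assembly and cytokinesis groups passed against control with the combination or with disulfiram. Of all tested genes, 18.4% were called higher and 6.70% lower with the combination, and 8.73% higher and 4.52% lower with disulfiram. ANLN and ECT2 had the largest combination differences from control of the 48 members, with wide spread between libraries. ANLN, the anillin scaffold of the contractile ring, had TPM of 59.3, 25.7 and 50.04 in combination libraries, 35.7, 18.01 and 37.1 in disulfiram libraries, 14.1, 15.9 and 22.7 in thalidomide libraries, and 19.4, 24.6 and 22.1 in control libraries. Its second combination library was just above the highest control, far below the other 2, and its difference was 0.92 ± 0.32 (adjusted p = 0.0505). ECT2, which activates RhoA for furrowing, had 36.0, 16.3 and 31.0 TPM with the combination, 19.1, 9.81 and 18.6 with disulfiram, 10.1, 11.7 and 16.2 with thalidomide and 13.4, 16.7 and 13.4 in control libraries. The difference was 0.83 ± 0.30 (adjusted p = 0.0592), with the second combination library inside the control range. DLGAP5, a microtubule-bundling protein of the spindle, had 21.96, 10.02 and 18.1 TPM with the combination, 11.9, 6.81 and 10.7 with disulfiram, 6.58, 7.07 and 10.4 with thalidomide and 8.09, 10.2 and 8.5 in control libraries, a combination difference of 0.77 ± 0.27 (adjusted p = 0.0532).

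The same library pattern was seen in NDC80, the microtubule-binding kinetochore subunit, and in KIF11, the motor that separates the spindle poles. NDC80 had TPM of 29.7, 14.3 and 24.8 with the combination, 16.0, 8.34 and 15.3 with disulfiram, 12.6, 10.2 and 14.7 with thalidomide, and 11.4, 13.6 and 13.8 in control libraries. KIF11 had TPM of 16.7, 8.66 and 14.3 with the combination, 9.57, 4.71 and 8.95 with disulfiram, 5.22, 6.87 and 8.62 with thalidomide, and 7.47, 8.39 and 6.76 in control libraries. In both genes the second combination library was just above the highest control and the second disulfiram library was below the lowest one. The differences of the combination from control, 0.72 ± 0.27 for NDC80 (adjusted p = 0.0667) and 0.69 ± 0.27 for KIF11 (adjusted p = 0.0736), did not pass. SPC25, the partner of NDC80 in its complex and the most abundant kinetochore member, averaged 25.3 ± 3.12 TPM with the combination, 20.9 ± 4.88 with disulfiram, 17.6 ± 4.74 with thalidomide and 19.4 ± 1.58 in control libraries (SD, n = 3 each). KIF20A, a kinesin of the central spindle, averaged 58.2 ± 2.70 TPM with the combination, 58.4 ± 4.37 with disulfiram, 60.3 ± 3.53 with thalidomide and 63.5 ± 4.36 in control libraries. PRC1, which bundles that spindle, averaged 61.0 ± 5.21 TPM with the combination, 51.9 ± 5.21 with disulfiram, 57.8 ± 6.17 with thalidomide and 57.1 ± 5.995 in control libraries. The combination differences were 0.36 ± 0.19 for SPC25, -0.12 ± 0.09 for KIF20A and 0.10 ± 0.11 for PRC1. CENPE was the least abundant member, at 2.20, 0.38 and 1.68 TPM with the combination and 0.69, 1.16 and 0.74 TPM in control libraries, and entered the tests with 3 libraries at a TPM of at least 1.

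The transcription factor FOXM1, which activates many of these genes in G2, had TPM of 74.0, 88.0 and 80.8 with the combination, 89.6, 94.9 and 86.8 with disulfiram, 89.6, 78.6 and 94.3 with thalidomide and 97.5, 83.3 and 94.4 in control libraries. The groups overlapped, and its differences were -0.18 ± 0.10 with the combination (adjusted p = 0.172) and -0.02 ± 0.10 with disulfiram (adjusted p = 0.928). CDCA3, a mitotic-entry ubiquitin ligase component, had 64.8, 67.6 and 65.8 TPM with the combination, 81.7, 79.0 and 73.0 with disulfiram, 78.1, 68.3 and 82.6 with thalidomide and 79.2, 77.1 and 77.7 in control libraries. The combination libraries were below all those of the other 3 groups, and the difference from control was -0.24 ± 0.08 (adjusted p = 0.0509). The proliferation antigen MKI67 averaged 27.1 ± 6.01 TPM with the combination, 20.8 ± 4.18 with disulfiram, 21.9 ± 3.21 with thalidomide and 25.8 ± 1.42 in control libraries (SD, n = 3 each), with no difference past the threshold. Exons of 11 members, among them FOXM1, CDCA3, ANLN, KIF20A and PRC1, overlap those of another tested gene, and as no strand is stated their values are uncertain to that extent.

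The members had lower GC content than most tested genes. The GC content of the longest GENCODE 29 transcript ran from 35.3% (CENPE) to 59.3% (CDC25B) with a median of 42.6%, against a median of 48.9% and an interquartile range of 42.5% to 56.7% over the 15042 tested genes with a value. Of the 48, 36 lay below the median of all tested genes. Across the members the log2 fold change of the combination against control fell with GC content (Spearman's rho -0.78, Pearson's r -0.77, n = 48 genes), and so it did over all genes (rho -0.44, n = 15042). For disulfiram the values of rho were -0.15 for members and 0.00 for all genes, and for thalidomide 0.34 and 0.20. Genes share their libraries and are not independent, so these values describe the 12 libraries and carry no p.

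**Figure D2:**
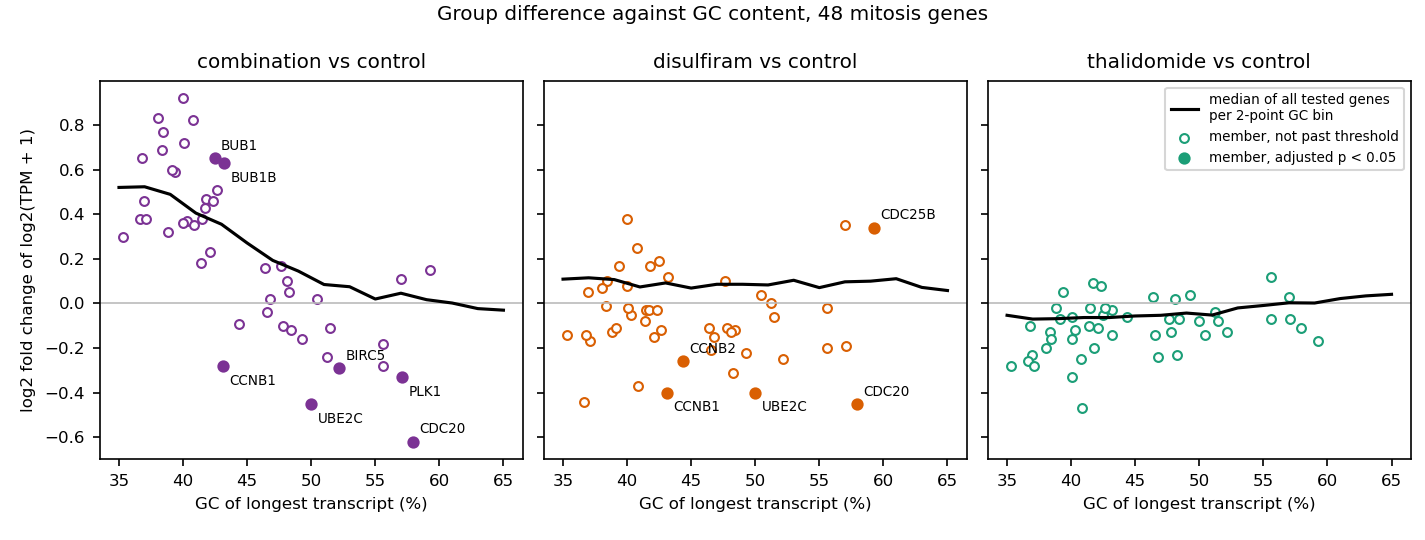
Log2 fold change against control (vertical axis) by GC content of the longest transcript (horizontal axis, percent) for the 48 members, for the combination, disulfiram and thalidomide from left to right; filled points passed the threshold and the line is the median of all tested genes in bins of GC content. With the combination the members slope down along GC content together with the line, while CDC20, UBE2C, CCNB1, PLK1 and BIRC5 lie below it.

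The 21 members below 42% GC had a median combination difference of 0.46 and all 21 were positive, but all genes in that band had a median of 0.47. Between 42% and 50%, the 16 members had a median of 0.07, beside 0.25 for all genes of that band. The 11 members from 50% upwards had a median of -0.24, beside 0.03 for all genes of that band, and 4 of the 11 were called lower, where 11.5% of that band's genes were. Once a curve of each library's deviation on GC content had been subtracted, the medians of the 3 bands were 0.05, -0.12 and -0.31, with 0.00, 0.01 and 0.01 over all genes. The medians over all genes follow from the correction, whose curves were fitted over all genes. The median of the 48 members then changed sign, to -0.08, and 10 of the 48 were called lower and 1 (BUB1) higher, where 12.2% of all genes were called lower and 10.0% higher. CDC20, UBE2C, PLK1, BIRC5 and CCNB1 were among the 10, together with AURKB (-0.31), CCNB2 (-0.37), CDCA3 (-0.32), PTTG1 (-0.29) and KIF20A (-0.27). With disulfiram, the same correction gave 9 members lower and 0 higher, with a median of -0.18, beside 10.3% of all genes lower, 8.90% higher and a median of 0.01.

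**Figure D3:**
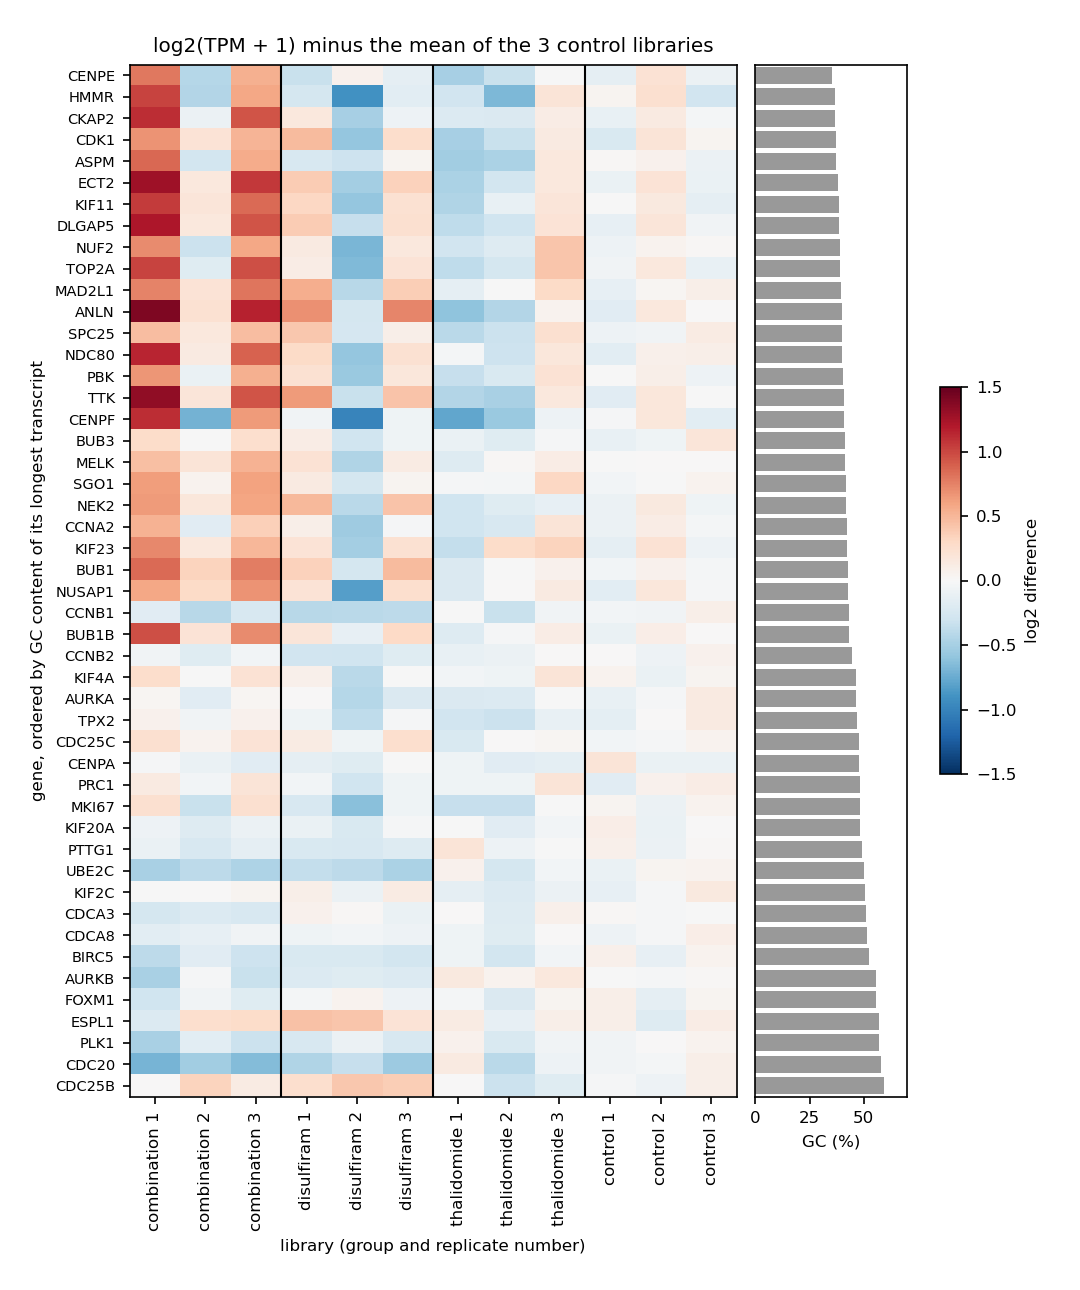
Log2(TPM + 1) of the 48 members in each library less the mean of the 3 control libraries, with genes ordered from low to high GC content (grey bars, percent) and libraries in columns by group. AT-rich members are high in combination libraries 1 and 3, near control in combination library 2 and low in disulfiram library 2, and CDC20 and UBE2C are low in all 6 disulfiram-containing libraries.

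Libraries of one group differed in the same GC-dependent way. For members below 42% GC, the median deviation from the control mean was 0.87 and 0.60 on the log2 scale in the first and the third combination libraries and 0.13 in the second. It was 0.23 and 0.17 in the first and the third disulfiram libraries and -0.45 in the second, and -0.38, -0.28 and 0.16 in the 3 thalidomide libraries. The control libraries were at -0.08, 0.14 and -0.02. Over all genes of that band, the deviations were 0.68, 0.16 and 0.56 in the 3 combination libraries and 0.28, -0.21 and 0.22 in the 3 disulfiram libraries. Over all tested genes, a gene's deviation from its own group mean correlated with GC content at rho 0.66 in the second combination and 0.60 in the second disulfiram library, at -0.59 to 0.48 in the other 7 treated libraries, and at -0.18 to 0.13 in the controls. With both second libraries removed, 24 members were called higher and 5 lower in combination against control, with a median of 0.45. Of all genes, 29.4% were then called higher and 8.70% lower, with a median of 0.22. All 24 had transcripts below 50% GC, and 19 of them below 42%, a band in which 61.6% of all genes were then called higher. CDC20 (-0.67), UBE2C (-0.47), PLK1 (-0.41), BIRC5 (-0.35) and AURKB (-0.41) were then the 5 called lower, and CCNB1 (-0.21, adjusted p = 0.118) was not. Those 5 were among the 11 members from 50% GC upwards, a band in which 15.8% of all genes were then called lower.

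**Figure D4:**
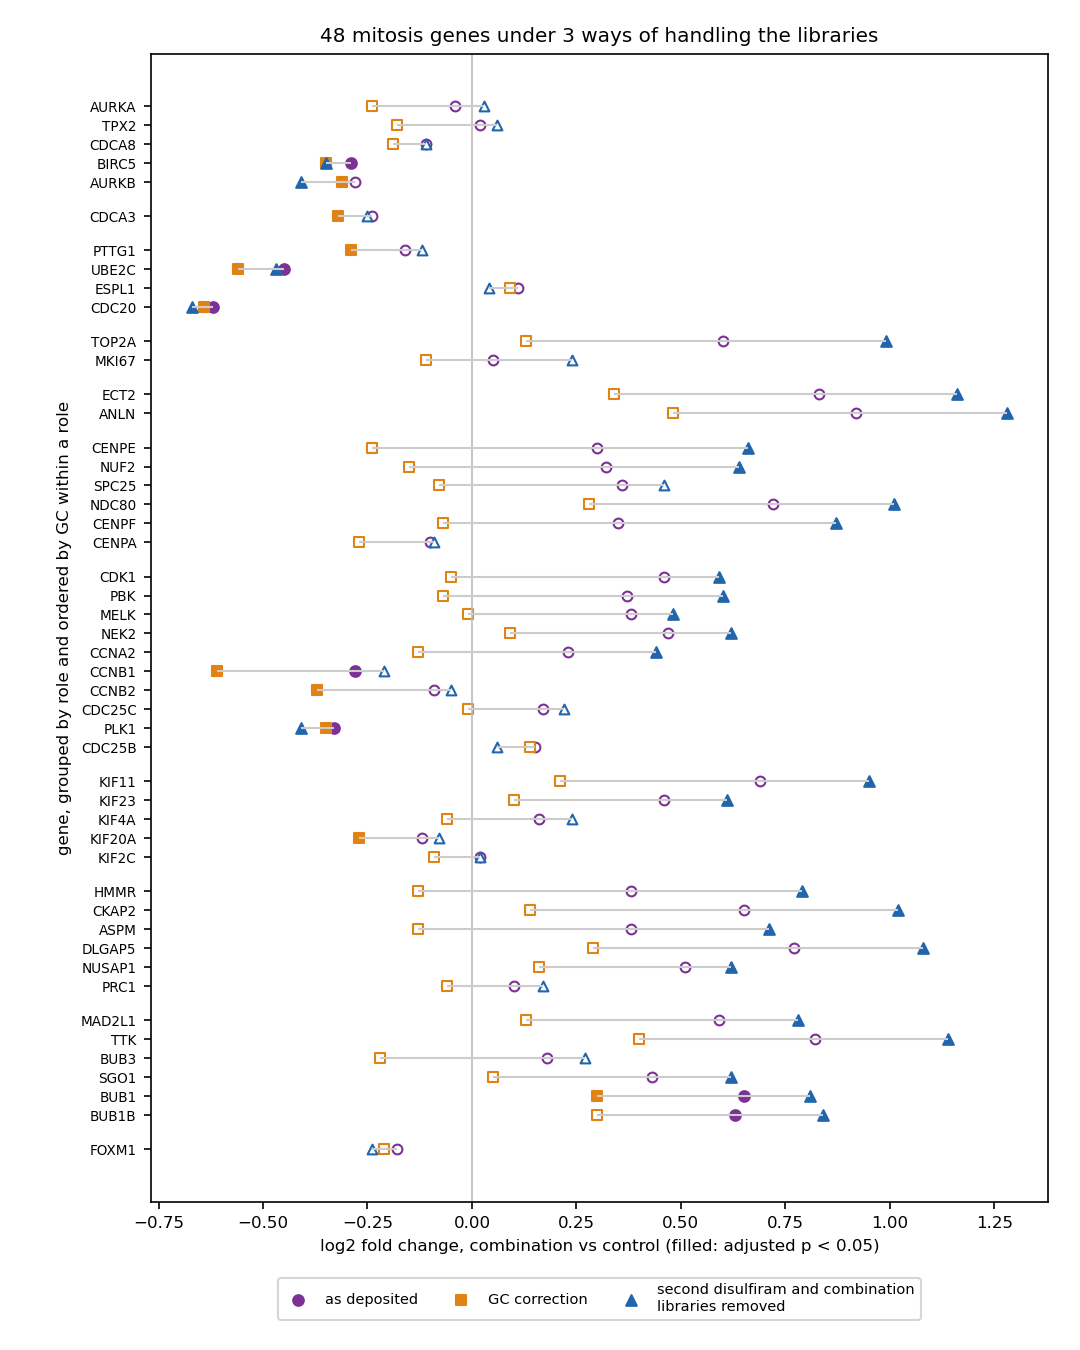
Log2 fold change of the combination against control for each member, grouped by role, with the deposited values (circles), after GC correction (squares) and without both second libraries (disulfiram and combination) (triangles); filled symbols passed the threshold. CDC20, UBE2C, PLK1 and BIRC5 are filled and negative in all 3, BUB1 is filled and positive in all 3, and AT-rich members such as ANLN and TTK run from 0.48 and 0.40 after GC correction to 1.28 and 1.14 without both libraries.

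Single libraries weighed heavily on the counts. The 7 members called for the combination became 2 (CDC20 and UBE2C) without the first or the third combination library or the first or the third control library. They became 22 without the second combination library and 16 without the second disulfiram library. For disulfiram the 5 calls became 3 without the third combination or the second disulfiram library, 2 without the first or the third disulfiram library or the first or second control library, and 1 (UBE2C) without the third control library. Shares of all genes called with a single library left out are not given here, so these changes are not read as particular to the members. The libraries of 20 members did not overlap between combination and control, 13 higher and 7 lower, where 33.9% of all genes were without overlap higher and 12.1% lower. Between disulfiram and control 2 members were higher and 8 lower without overlap, where the shares of all genes were 21.5% and 11.4%.

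Thalidomide alone was set against control to ask for an effect of that drug by itself. No member passed, of all tested genes 0% did, and 1 member (TPX2, -0.24, adjusted p = 0.856) and 873 of all genes had an unadjusted p below 0.05. The members had a median of -0.10, beside -0.03 for all genes, and 40 of 48 were negative. Libraries did not overlap control for 1 member that was lower (NEK2) and 1 that was higher (AURKB), where 6.32% of all genes were lower and 3.91% higher without overlap, so these members were no more frequent than the background.

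Adding thalidomide to disulfiram was examined by setting the combination against disulfiram. No member passed in limma's test, of all genes 0.00651% did, and 14 members and 2631 of all genes had an unadjusted p below 0.05. The smallest adjusted p was 0.265, a value shared by several members, NDC80 (0.74 ± 0.27) and CDCA3 (-0.23 ± 0.08) among them. Calls made with only one of these treatments against control, such as those of PLK1, BIRC5, CCNB2, CDC25B, BUB1 and BUB1B, were therefore not shown to differ between them. The members had a median of 0.33, beside 0.06 for all genes. All 21 members below 42% GC were positive, with a median of 0.54 beside 0.37 for all genes of that band, and all 11 from 50% upwards were negative, with a median of -0.14 beside -0.07. The difference ran against GC content across members (rho -0.87, and -0.63 over all genes), and after GC correction rho was -0.64 for members and 0.01 for all genes. The value for all genes follows from the correction, whose curves were fitted over all genes. The interaction, in which the difference between the combination and disulfiram is set against that between thalidomide and control, gave no member past the threshold, and 0% of all genes. The smallest adjusted p was 0.466, a value shared by many members, ANLN (0.87 ± 0.45) and TPX2 (0.42 ± 0.15) among them. An unadjusted p below 0.05 was reached by 7 members and 1580 of all genes.

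The combination was set against thalidomide to ask what disulfiram added in its presence. In this comparison 10 members were higher and 3 lower in combination libraries, where 25% of all genes were higher and 7.24% lower. The 10 were ANLN (1.26 ± 0.32), TTK (1.07 ± 0.31), ECT2 (1.03 ± 0.30), DLGAP5 (0.93 ± 0.27), KIF11 (0.82 ± 0.27), NDC80 (0.78 ± 0.27), BUB1 (0.70 ± 0.18), NEK2 (0.67 ± 0.21), BUB1B (0.66 ± 0.18) and CDC25B (0.32 ± 0.10). The 3 lower were CDC20 (-0.51 ± 0.12, adjusted p = 0.00936), AURKB (-0.40 ± 0.10, adjusted p = 0.0125) and UBE2C (-0.37 ± 0.08, adjusted p = 0.00945). The median of the members was 0.34, beside 0.22 for all genes. After GC correction 4 members were higher and 9 lower, where 11.5% of all genes were higher and 12.8% lower. After median-of-ratios scaling 5 members were higher and 10 lower, where 10.4% of all genes were higher and 15.6% lower. The count of 13 became 3 without the first, 28 without the second and 2 without the third combination library, 20 without the second disulfiram library and 4 without the first thalidomide library. Shares of all genes in those fits are not given here.

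Genes around the module were described from lists of known function, whose counts are read against all tested genes: 6.70% lower and 18.4% higher with the combination (median 0.20), and 4.52% lower and 8.73% higher with disulfiram (median 0.09). Of 50 other mitosis genes, 3 were lower and 9 higher with the combination (median 0.24), and 2 were lower and 0 higher with disulfiram (median -0.04). The counts lower in both comparisons and higher with the combination were near those shares. They included the kinesin KIF22, at 86.8, 111 and 94.5 TPM with the combination against 133, 122 and 128 TPM in control libraries (-0.39 ± 0.09, adjusted p = 0.00976), and the condensin subunit NCAPD2 (-0.41 ± 0.09, adjusted p = 0.0113). FAM83D, a spindle protein, and SKA1, which couples kinetochores to microtubules, fell with disulfiram (-0.30 ± 0.08 for FAM83D, adjusted p = 0.0354, and -0.47 ± 0.14 for SKA1, adjusted p = 0.0419). Of the 16 APC/C genes 1 fell in each comparison, the subunit ANAPC15, at 31.1, 33.9 and 30.8 TPM with the combination, 25.8, 33.3 and 30.8 with disulfiram and 56.3, 48.03 and 45.5 in control libraries (-0.62 ± 0.12 with the combination, adjusted p = 0.00477, and -0.72 ± 0.12 with disulfiram, adjusted p = 0.00249). Another 3 rose with the combination, a count near the 18.4% of all genes called higher, among them ANAPC2 (0.30 ± 0.10, adjusted p = 0.0471) and CDC23 (0.43 ± 0.12, adjusted p = 0.0237).

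Of 22 regulators in the DREAM, MuvB, RB and E2F list, which turn these promoters on and off through the cell cycle, 3 rose and 3 fell with the combination (beside 18.4% and 6.70% of all genes), and 1 rose and 3 fell with disulfiram (beside 8.73% and 4.52%). MYBL2 (B-MYB), which joins the MuvB core to activate mitotic genes, had 94.1, 127 and 111 TPM with the combination, 119, 126 and 117 with disulfiram, 158, 137 and 160 with thalidomide and 159, 149 and 161 in control libraries. It fell with the combination (-0.50 ± 0.10, adjusted p = 0.00695) and with disulfiram (-0.37 ± 0.10, adjusted p = 0.0358). TFDP1, the dimer partner of E2F factors, and NFYC, a subunit of the CCAAT-binding factor NF-Y, also fell in both, TFDP1 by 0.53 on the log2 scale with the combination and 0.63 with disulfiram, and NFYC by 0.45 with the combination and 0.33 with disulfiram. LIN37, a MuvB subunit needed for repression, rose in both (0.47 ± 0.08 with the combination, adjusted p = 0.00263, and 0.65 ± 0.08 with disulfiram, adjusted p = 0.000451). E2F1 (-0.19 with the combination and -0.04 with disulfiram), E2F4 (-0.10 with the combination and -0.14 with disulfiram) and the CHR-binding subunit LIN54 (0.64 with the combination and 0.21 with disulfiram) did not pass in either.

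Of the 13 CDK inhibitors and G2 arrest genes tested, which hold back the cell cycle, 6 rose and 0 fell with the combination (median 0.43), and 6 rose and 0 fell with disulfiram (median 0.38). Of all genes, 18.4% rose with the combination (median 0.20) and 8.73% with disulfiram (median 0.09). After median-of-ratios scaling, 3 of the 13 rose with the combination (median 0.19), where 7.90% of all genes did. With disulfiram 4 then rose (median 0.26), where 4.59% of all genes did. GC correction gave 5 higher with the combination, and 6 higher and 1 lower with disulfiram. The shares of all genes higher were then 10.0% with the combination and 8.90% with disulfiram. GADD45G, a stress-induced gene that can inhibit cyclin B1-CDK1, had 11.5, 9.37 and 11.6 TPM with the combination, 9.08, 8.85 and 8.55 with disulfiram, 4.57, 5.18 and 3.16 with thalidomide and 3.69, 3.49 and 2.5 in control libraries (1.49 ± 0.17 with the combination, adjusted p = 0.000291, and 1.23 ± 0.17 with disulfiram, adjusted p = 0.000906). The inhibitor CDKN2B (p15) rose by 1.27 ± 0.20 with the combination (adjusted p = 0.00205) and by 1.24 ± 0.20 with disulfiram (adjusted p = 0.00232). GADD45A rose with the combination (0.61 ± 0.18, adjusted p = 0.0288), with 0.38 for disulfiram (adjusted p = 0.181). CDKN1A (p21) rose with disulfiram (0.67 ± 0.19, adjusted p = 0.0419), with 0.43 for the combination (adjusted p = 0.118). Of the 7 G1 cyclins and kinases tested, 0 rose and 2, CCND1 and CDK4, fell in both comparisons, CCND1 by 0.47 on the log2 scale with the combination and 0.75 with disulfiram, and CDK4 by 0.52 with the combination and 0.44 with disulfiram. Among 37 genes of S phase and DNA replication, 13 fell and 0 rose with the combination (median -0.25), and 10 fell and 0 rose with disulfiram (median -0.30), where 6.70% of all genes fell with the combination and 4.52% with disulfiram. The helicase subunits MCM5 and MCM7 had the smallest adjusted p, with MCM5 at -0.81 ± 0.10 with the combination and -0.80 ± 0.10 with disulfiram, and MCM7 at -0.65 ± 0.09 with the combination and -0.61 ± 0.09 with disulfiram. After GC correction 21 of the 37 were lower with the combination and 22 with disulfiram, where 12.2% and 10.3% of all genes were.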

How the data were processed

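The authors deposited one table of TPM values per gene for 12 Huh7 libraries. Per the submitters' processing notes, HISAT2 2.0, StringTie 1.3.0 and hg38 were used. Annotation, filters, strand setting and read depth were not given in the sources used here, so no counting interval can be stated. Of 59191 features, 58884 carried an Ensembl identifier, of which GENCODE 29 holds 58611.

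Deposited TPM values were used as log2(TPM + 1). Genes with a TPM of at least 1 in at least 3 libraries (15352) entered a single trended fit over the 12 libraries in limma 3.58.1 under R 4.3.3, with two-sided tests and Benjamini-Hochberg adjustment over all genes tested, at 0.05. GC content was that of the longest GENCODE 29 transcript of each gene. GC correction subtracted from each library a loess curve (span 0.3) of deviations from the 12-library mean on GC content. Fits were run on simulated data with independent noise for each gene and with planted changes. The simulated fit held no GC-dependent deviations shared by the genes of a library, so it was no test of the calls made here. Promoters came from RefSeq (GRCh38.p14).

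Named members were the 17 past the threshold in any of the 6 comparisons and the member of each of 11 role groups with the highest control TPM, 25 in all. From the other lists, the genes with the 2 smallest adjusted p for the combination and for disulfiram against control were named, with MYBL2, LIN54, E2F1, E2F4, CDKN1A and GADD45A always included. Other members are named after their values were seen. The members and lists were chosen with earlier results of these data known. Alternatives were a pseudocount of 0.1, no filter, median-of-ratios scaling, only the compared groups, a replicate block, GC correction, removal of the second disulfiram and combination libraries, and each library left out. Python 3.11.15 was used for tables and figures.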

Additional observations from a re-analysis of the deposited data

How the results depend on the processing

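Members called for the combination against control numbered 7 (2 higher, 5 lower). They numbered 12 after median-of-ratios scaling (0 higher, 12 lower), 11 after GC correction (1 higher, 10 lower), 2 with no filter, 29 without the second disulfiram and combination libraries (24 higher, 5 lower), 27 when that removal was joined with median-of-ratios scaling (15 higher, 12 lower, an alternative chosen after seeing the data), and 2 to 22 when single libraries were left out. For disulfiram against control the 5 members became 3 with no filter, 9 after GC correction, 9 with the added alternative, and 1 to 5 when single libraries were left out. For the combination against thalidomide the 13 became 6 with no filter, 32 without both second libraries, 31 with the added alternative, and 2 to 28 when single libraries were left out. For the combination against disulfiram the 0 became 0 to 1, the 1 without the second combination library. For thalidomide and the interaction the count was 0 in every alternative run; with all 4 groups needed, the interaction had no fit of compared groups only.

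With a replicate block the combination against control gave 11 members (7 higher, 4 lower), and 11 when the replicate block was joined with GC correction; disulfiram against control gave 4 and 8, and the combination against thalidomide 17 and 13. Same-numbered libraries of different groups had correlated deviations of -0.154 to 0.369 and no label says that a number is shared, so the numbers were not taken to pair the libraries. Of 12 libraries, 0 correlated best with its own number in all 3 other groups.

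Over all genes, combination against control gave 2823 higher and 1029 lower, but 1213 and 2139 after median-of-ratios scaling and 1538 and 1877 after GC correction; disulfiram against control gave 1340 and 694, but 704 and 1050, and 1367 and 1579; the combination against thalidomide gave 3834 and 1112, but 1600 and 2400, and 1770 and 1962. Without both second libraries, 5850 genes were called for the combination against control, beside 3852. The count was 2658 with no filter, where more genes were tested, 3584 with a replicate block, 3136 with that block and GC correction, and 5455 with the added alternative. In the same order, disulfiram against control gave 1597, 1786, 2683 and 2262, beside 2034. The combination against thalidomide gave 3471, 4632, 3420 and 5995, beside 4946, and 6468 without both second libraries. Of 1575 refitted values of named members, 1423 kept their side of the threshold, 76 lost it and 76 gained it. Most of the 1575 belonged to values that had not passed in the main fit. The 76 losses all came from the 7 combination and 5 disulfiram calls, each refitted under 21 alternatives. Of the 1575, 62 changed sign, of which 0 had passed in either fit. The cause of these changes was not tested. Depth is unknown, so no limit from read counts can be given.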
